A study of Mus musculus with 2 samples.

Results

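Genes of fatty acid oxidation and further known targets of the peroxisome proliferator-activated receptors (PPARs) were compared between PPARβ/δ knockout and wild-type male mice in epididymal white adipose tissue, a fat depot attached to the epididymis. A list of 31 genes was matched by gene symbol to the annotation of the array, out of 12394 genes and 22690 probe sets. Of these, 29 had at least 1 probe set assigned to them alone (44 probe sets in all). Ucp2 matched no probe set and Cpt1b matched only 1 that was assigned to other genes as well. The list was divided into 17 mitochondrial members, 3 peroxisomal members and 11 other PPAR targets.

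The PPARβ/δ knockout pool came from male mice with a knockout of PPARβ/δ (gene Ppard) on a mixed Sv129/C57BL/6 background, aged 12 weeks. The wild-type pool came from male mice aged 12 to 16 weeks, whose sample label gives the strain 129S1/SvJae, although the design text calls the controls littermates on the mixed background, so strain may differ between the pools. All animals ate standard chow. Each pool combined the RNA of 5 animals and was hybridised to 1 array, so each gene has 1 knockout and 1 wild-type value, with no spread between replicates, no test and no p-value. The labels do not say which part of Ppard was disrupted, and the only Ppard probe set read 6.27 in knockout and 6.58 in wild-type fat, under the intensity floor of 32 used throughout, so it does not check the genotype.

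PPARs are nuclear receptors that bind fatty acids and their derivatives and act on DNA as heterodimers with retinoid X receptors. PPARα and PPARβ/δ are best known for switching on genes that import fatty acids into mitochondria and burn them by β-oxidation, and PPARγ for directing the formation and lipid storage of fat cells. Because the receptors share target genes, a listed target may respond to any of them. In β-oxidation, fatty acids enter mitochondria through the carnitine shuttle. Each turn of the spiral then uses an acyl-CoA dehydrogenase, a hydratase, a hydroxyacyl-CoA dehydrogenase and a thiolase. Very long chains are first shortened in peroxisomes.

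PPAR heterodimers prefer a direct repeat of the core motif AGGTCA with 1 base between the copies. RefSeq promoter windows (build GRCm38.p6, the 250 bases before the annotated start) were matched for 26 of the 31 genes, the others being Cpt1b, Decr1, Angptl4, Vnn1 and Acaa2. The core motif AGGTCA, searched on both strands (TGACCT on the other), occurred in 7 of 28 member windows (25%), against 14.02% of 32851 windows in the whole table. Counted by gene, it occurred in 7 of 26 members and in 4260 of 27025 genes. Of these members, Creb3l3, Plin5 and Ucp3 were under the intensity floor in both pools. The repeat AGGTCANAGGTCA, likewise searched on both strands, occurred in 0 member windows and in 11 windows of the table (0.033%). It contains the core motif, so a window with the repeat also counts for the core motif. These matches describe letters in a short window and say nothing of binding. Windows of 4 members with a core motif are printed because these members differ in their readout: the first pair and Cat were lower in the knockout pool and Cpt1a was not. Capitals mark the core motif on either strand.
Acadm (chr3:153944644-153944893, minus strand): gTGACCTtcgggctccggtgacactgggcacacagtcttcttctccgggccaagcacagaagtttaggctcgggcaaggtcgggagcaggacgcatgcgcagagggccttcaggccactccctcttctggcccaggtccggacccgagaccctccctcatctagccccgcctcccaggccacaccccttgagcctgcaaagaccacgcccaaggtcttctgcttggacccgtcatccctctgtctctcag
Acadvl (chr11:70015429-70015678, minus strand): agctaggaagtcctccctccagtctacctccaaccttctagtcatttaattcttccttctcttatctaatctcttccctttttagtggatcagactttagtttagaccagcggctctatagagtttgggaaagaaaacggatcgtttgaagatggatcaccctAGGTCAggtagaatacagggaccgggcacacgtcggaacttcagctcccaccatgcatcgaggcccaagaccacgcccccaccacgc
Cpt1a (chr19:3323051-3323300, plus strand): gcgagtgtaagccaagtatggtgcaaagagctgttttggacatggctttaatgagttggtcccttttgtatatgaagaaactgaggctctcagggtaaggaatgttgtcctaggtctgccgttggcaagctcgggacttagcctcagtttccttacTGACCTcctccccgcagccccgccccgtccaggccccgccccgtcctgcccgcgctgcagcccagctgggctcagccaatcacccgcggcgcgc
Cat (chr2:103485154-103485403, minus strand): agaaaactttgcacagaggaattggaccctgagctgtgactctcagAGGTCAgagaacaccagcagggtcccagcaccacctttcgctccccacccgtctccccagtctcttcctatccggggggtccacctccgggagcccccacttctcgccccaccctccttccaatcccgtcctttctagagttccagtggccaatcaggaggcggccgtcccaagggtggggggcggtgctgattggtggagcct

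Hadha and Hadhb, which encode the subunits of the mitochondrial trifunctional protein, lie head to head with 272 bases between their annotated starts. Their windows share 228 bases, shown in capitals in the Hadhb window, and neither holds the core motif. The window is printed because these partner genes stood apart from the listed acyl-CoA dehydrogenases in the comparison of the pools. The windows of Acadl, Acads, Etfa, Etfb and Etfdh, which were lower in the knockout pool, held no core motif either.
Hadhb (chr5:30155003-30155252, plus strand): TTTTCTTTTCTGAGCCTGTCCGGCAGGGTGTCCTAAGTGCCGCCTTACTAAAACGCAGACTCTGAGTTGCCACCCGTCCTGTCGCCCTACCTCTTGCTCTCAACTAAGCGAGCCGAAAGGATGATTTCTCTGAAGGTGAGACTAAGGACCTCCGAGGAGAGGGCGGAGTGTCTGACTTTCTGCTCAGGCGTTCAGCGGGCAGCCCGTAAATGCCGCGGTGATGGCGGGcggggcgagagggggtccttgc

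Over the whole list the knockout pool had lower values, by modest amounts. The floor (log2 intensity of 5, that is 32, on at least 1 array) was reached by 24 of the 31 genes. Each gene is represented by its probe set with the highest mean, and each difference is its log2 intensity in the knockout pool minus that in the wild-type pool. Lower values in the knockout pool were found for 19 of the 24 (79.2%), against 55.5% of all 6533 genes above the floor. A difference of at least 1.5-fold lower was found for 13 (54.2%), against 21.3% of all genes, and at least 1.5-fold higher for 3, against 20.7% of all genes. At 2-fold, 2 genes were lower (8.33%, against 9.14% of all genes) and 1 was higher (4.17%, against 13.7%). The share of 2-fold lower genes lay above or under that of all genes, depending on the setting. It was 3 of 22 (13.6%, against 9.21%) without probe sets of shared sequence, and 4.17%, against 7.49%, with the intensity trend removed. The median difference was -0.62 for the 24 genes and -0.08 for all genes. Their quartiles were -0.90 and -0.17, against -0.50 and 0.42 for all genes, so that 14 of the 24 lay below the lower quartile of all genes and 3 above the upper one. Another 4 genes were within 0.1 of the 2-fold line without reaching it, namely Acadvl, Acadm, Acadl and Pdk4.

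**Figure D1:**
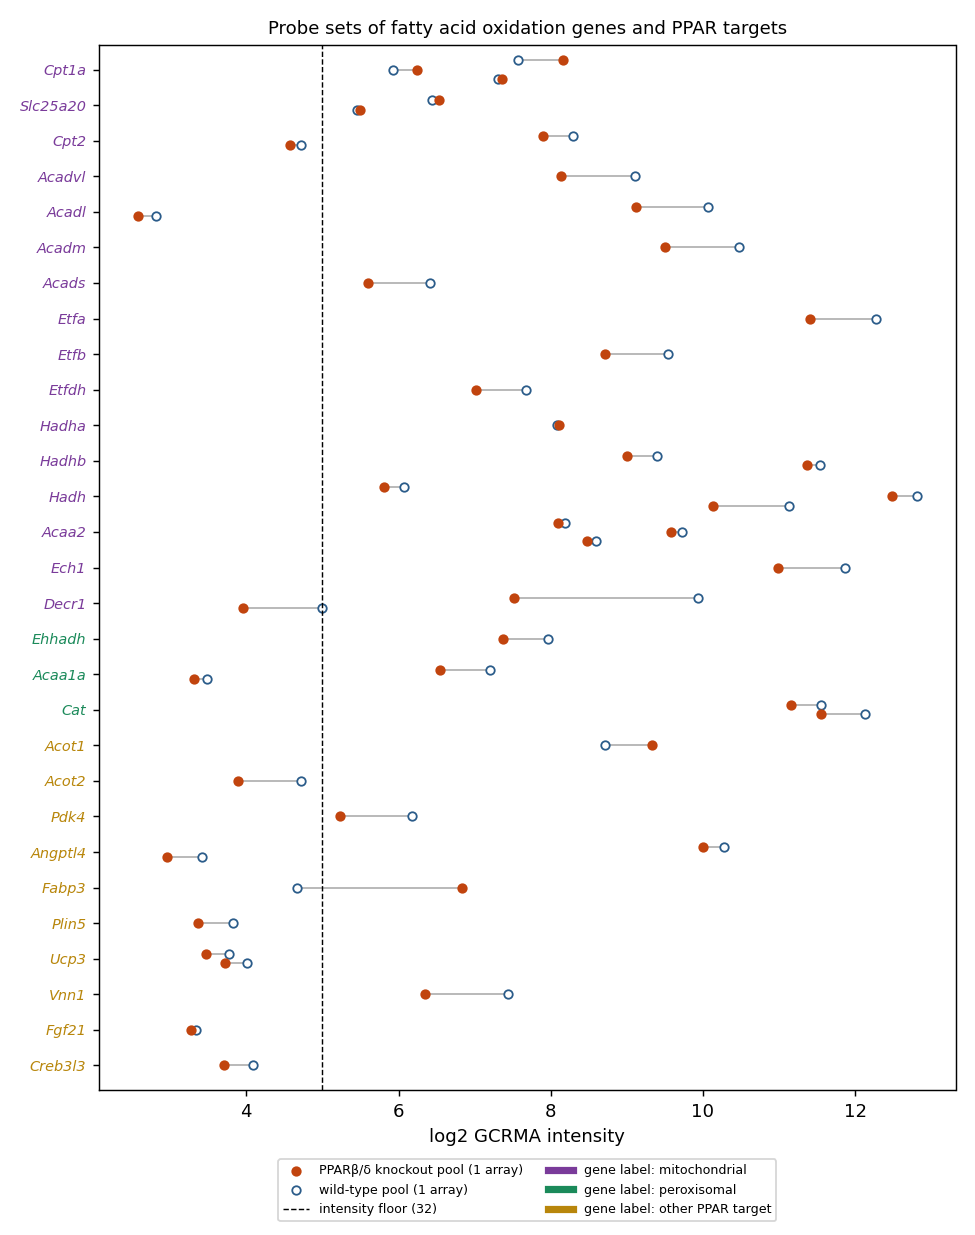
Log2 GCRMA intensity of every probe set assigned to 1 listed gene alone, in the PPARβ/δ knockout pool (filled) and the wild-type pool (open), 1 array each, with a grey line joining the 2 values of a probe set and a dashed line at the floor of 32. Filled points lie to the left for most mitochondrial and all peroxisomal genes, Decr1 and Fabp3 have the longest lines among probe sets that reach the floor, and Plin5, Ucp3, Fgf21, Creb3l3 and Acot2 lie left of the floor in both pools.

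Disagreement between probe sets of the same gene is the only technical spread that can be seen here. Above the floor were 33 of the 44 probe sets, 25 of them lower in the knockout pool. All probe sets pointed the same way in each of the 6 members with several of them above the floor (Cpt1a, Slc25a20, Hadhb, Hadh, Acaa2 and Cat). Over 2137 genes of the array, probe sets of 1 gene disagreed in their difference by an SD with median 0.25 and 90th percentile 0.75. Differences between animals, dissections, labelling reactions or arrays are not covered by it.

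Marker genes of several tissues and cell types also differed between the pools. They are given here because they were measured in the same RNA as each result below. The testis germ cell and epididymis markers are not markers of fat pad cells. All 10 measured adipocyte markers of 12 listed were lower in the knockout pool, with a median of -1.15 and a summed intensity of 31956 in knockout against 49838 in wild-type fat. They ranged from Lep, the satiety hormone leptin (-2.87), to Fabp4 (-0.20). Each of the 16 testis germ cell markers was higher by over 2-fold, from Sycp3 (2.25) to Meig1 (6.45), and their summed intensity was 66175 in knockout and 3787 in wild-type fat. The 8 measured epididymis markers had a median of 0.32 (Cuzd1 -0.03, Defb1 1.57). Macrophage markers were lower (8 of 8, median -0.86, Cd163, under the floor in the knockout pool, at -2.61 to Ctss -0.17), as were 6 of 7 endothelial markers (median -1.04, Sox18 -1.59 to Cldn5 0.01). Of 10 skeletal muscle markers only Myl1 reached the floor (47.2 in knockout and 107 in wild-type fat), and of 7 brown and beige adipocyte markers with a probe set only Ppargc1a did (28.1 in knockout and 35.6 in wild-type fat); the other 9 and 6 were below it in both pools. In RNA of a whole pad, the number of cells of a type, the RNA per cell and the mix of tissues cannot be told apart. The part of these shifts in the results was not tested.

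The 4 listed acyl-CoA dehydrogenases take the first step of each turn of the spiral. All were lower in the knockout pool, by similar amounts. Acadvl, which acts on very long chains, had an intensity of 280 in the knockout pool, against 552 in the wild-type pool, a log2 difference of -0.98. Acadl, for long chains, was at 559 in knockout and 1076 in wild-type fat (-0.95). Acadm, the medium-chain enzyme, was at 728 in knockout and 1419 in wild-type fat (-0.96). These 3 differences lie closer together than probe sets of 1 gene usually do, but they were set side by side after their values were seen. Acads, the short-chain enzyme, was at 48.4 in knockout and 85.2 in wild-type fat (-0.81), close above the floor. A further Acadl probe set was below the floor in both pools. Genes of the same family outside the list differed less, with Acad11 at -0.61, Acadsb at -0.46, Acad9 at -0.37 and Acad8 at 0.02. Acad10 was below the floor in both pools.

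The carriers that take electrons from these dehydrogenases differed in the same way. Etfa and Etfb encode the subunits of the electron transfer flavoprotein, a soluble carrier in the mitochondrial matrix, and Etfdh encodes the membrane enzyme that passes the electrons on to ubiquinone. Etfa was at 2721 in knockout and 4930 in wild-type fat (-0.86). Etfb was at 418 in the knockout pool and 744 in the wild-type pool (-0.83). Etfdh was at 129 in knockout and 205 in wild-type fat (-0.67). Together with the listed acyl-CoA dehydrogenases, 7 of 7 listed genes of flavin-linked electron transfer were lower by at least 1.5-fold, against 21.3% of all genes. Their differences lay between -0.98 and -0.67. These genes were grouped after their values were seen, so the count is a description only.

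The 4 listed genes of the later steps of the spiral differed less at their representative probe sets. Other enzymes of these kinds of step, outside the list, were lower by more than those representatives. They were Echs1 (-0.64), Hsd17b10 (-0.77) and Acat1 (-0.51), so smaller differences are not a trait of the later steps as a whole. Hadha, the trifunctional subunit with hydratase and hydroxyacyl-CoA dehydrogenase activity, was at 275 in knockout and 270 in wild-type fat (0.03). Hadhb, the thiolase subunit, was at 2639 in knockout and 2971 in wild-type fat (-0.17), with -0.39 at its second probe set. Both subunits thus lay between the quartiles of all genes, as did Acaa2, the thiolase for shorter chains, whose 3 probe sets gave between -0.15 and -0.09. Hadh, the hydroxyacyl-CoA dehydrogenase for medium and short chains, depended on the probe set. Its representative, whose probes may match several transcripts (suffix _x), was at 5739 in knockout and 7162 in wild-type fat (-0.32), and another of that kind gave -0.27. The Hadh probe set without that suffix was at 1121 in knockout and 2249 in wild-type fat, a 2.01-fold lower value.

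**Figure D2:**
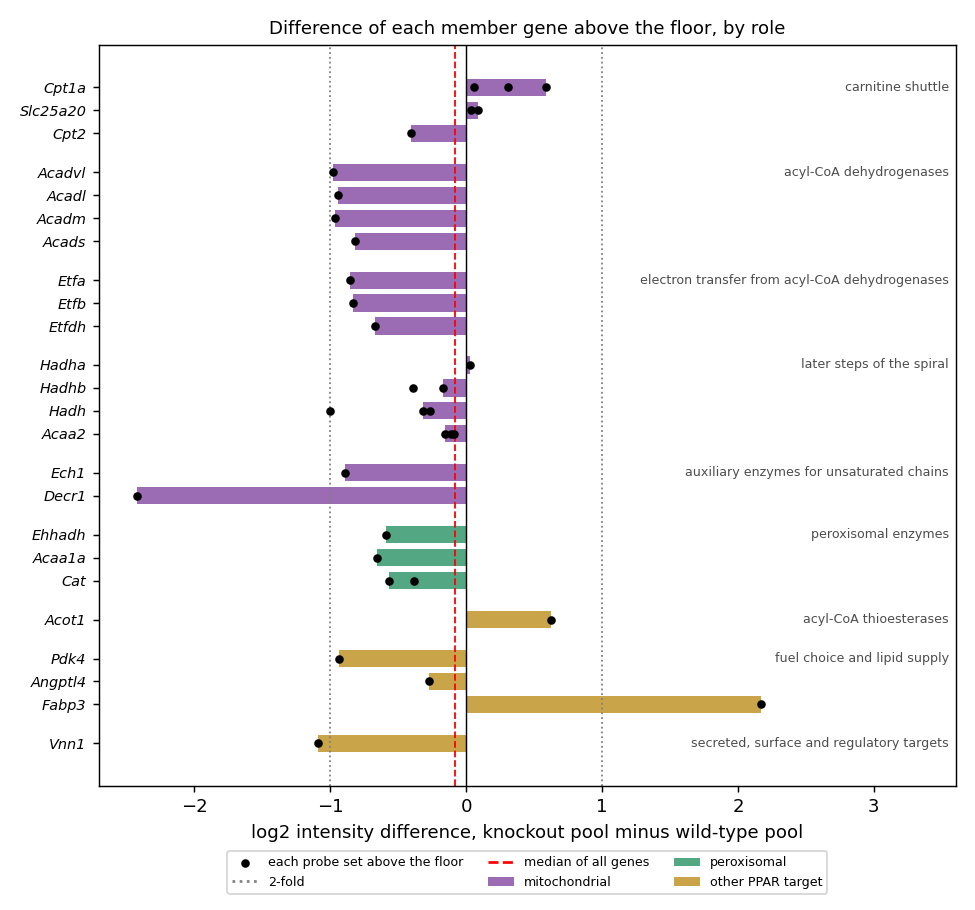
Log2 difference, knockout pool minus wild-type pool, of each listed gene above the floor (bars, 1 array per pool), with black points for each of its probe sets above the floor, dotted lines at 2-fold and a dashed line at the median of all genes. The bars of the 7 dehydrogenase and electron transfer genes lie between -0.98 and -0.67, those of the later steps between -0.32 and 0.03, and only the bars of Decr1, Vnn1 and Fabp3 pass a dotted line, as does 1 probe set point of Hadh (2.01-fold lower).

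Of the auxiliary enzymes that prepare unsaturated chains for the spiral, Decr1 had the lowest difference of the list. Decr1, the mitochondrial dienoyl-CoA reductase, was at 183 in the knockout pool and 981 in the wild-type pool, 5.35-fold lower (-2.42), and 0.37% of all genes had a difference as low. Its second probe set, at 15.5 in knockout and just under the floor at 31.9 in wild-type fat, was lower too (-1.04 as measured). Ech1, a dienoyl-CoA isomerase found in mitochondria and peroxisomes, was at 2019 in knockout and 3734 in wild-type fat (-0.89). Decr1 was the only member with a lower difference than the adipocyte marker median of -1.15.

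Of the carnitine shuttle, Cpt1a and Slc25a20 were not lower in the knockout pool, and Cpt2 was lower by less than the listed dehydrogenases. Cpt1a, the carnitine palmitoyltransferase of the outer membrane and the entry point of the pathway, was at 286 in knockout and 191 in wild-type fat (0.59). Its other probe sets gave 0.31 and 0.05, the smallest at the probe set without a suffix for shared sequence. Slc25a20, the carnitine-acylcarnitine carrier of the inner membrane, was at 92.4 in knockout and 86.9 in wild-type fat (0.09). Cpt2, which reforms acyl-CoA in the matrix, was at 238 in knockout and 314 in wild-type fat (-0.40). The muscle-type Cpt1b has only a probe set also assigned to Chkb and Gm44502, which read 23.4 in knockout and 5.36 in wild-type fat, below the floor in both pools, and gives no value for Cpt1b. Over all 16 measured mitochondrial genes the median difference was -0.74, and it was -0.17 over the 9 outside the dehydrogenase and electron transfer steps. That division was made after the values were seen, so the higher median of the rest follows from it and is a description only. The -0.17 is the value of Hadhb at a probe set with suffix _x, and its second probe set gave -0.39.

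The 3 peroxisomal members were lower in the knockout pool, as were 55.5% of all genes, so a count this small says little of the group. Ehhadh, the peroxisomal bifunctional enzyme and a classical PPARα target in liver, was at 166 in knockout and 250 in wild-type fat (-0.59). Cat, the catalase that removes the hydrogen peroxide made by peroxisomal oxidation, was at 3010 in knockout and 4467 in wild-type fat (-0.57), with -0.38 at its second probe set. Acaa1a, a peroxisomal thiolase, was at 93.4 in knockout and 147 in wild-type fat (-0.65). Acaa1a has a close paralog, Acaa1b, and 2 further probe sets are assigned to both genes. These read 622 in knockout against 1105 in wild-type fat (-0.83) and 921 against 1311 (-0.51), and a probe set assigned to Acaa1b alone was at 195 in knockout and 583 in wild-type fat (-1.58). All of these were lower in the knockout pool, but the split between the 2 genes is uncertain.

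The other PPAR targets went in both directions. Of 11 listed, 5 reached the floor, with a median of -0.27. Vnn1, a pantetheinase on the cell surface and a PPARα target in liver, was at 81.7 in knockout and 174 in wild-type fat, 2.13-fold lower (-1.09, and -0.92, short of 2-fold, with the trend of differences with intensity removed). Pdk4, the kinase that shuts off pyruvate dehydrogenase when fat is burned, was at 37.6 in knockout and 72.1 in wild-type fat (-0.94), near the floor in the knockout pool. Angptl4, a secreted inhibitor of lipoprotein lipase that all PPARs induce, was at 1024 in knockout and 1239 in wild-type fat (-0.27). The Angptl4 difference lay between the quartiles of all genes.

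Fabp3 and Acot1 had higher values in the knockout pool. Fabp3, the heart-type fatty acid binding protein, was at 114 in knockout fat and, under the floor, at 25.4 in wild-type fat, at least 3.57-fold higher with the wild-type value set to the floor (2.17 as measured). It was the only listed gene that reached the floor in 1 pool alone. The cells that Fabp3 came from were not tested. Acot1, a cytosolic thioesterase that splits acyl-CoA, was at 646 in knockout and 419 in wild-type fat, 1.54-fold higher (0.62). The probe set assigned to both Acot1 and its neighbouring paralog Acot2 was at 476 in knockout and 288 in wild-type fat (0.73), whereas that of Acot2 alone, the mitochondrial form, was at 14.8 in knockout and 26.3 in wild-type fat, below the floor in both pools. These paralogs have similar sequences, so their values are uncertain as to the gene.

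The remaining targets could not be measured at this signal. Plin5, a lipid droplet protein of oxidative tissues, read 10.3 in knockout and 14.2 in wild-type fat. Both probe sets of the muscle uncoupling protein Ucp3 read between 11.0 and 16.2 over the pools. The hormone Fgf21 read 9.64 in knockout and 10.2 in wild-type fat, and Creb3l3, a liver transcription factor upstream of it, 13.1 in knockout and 17.0 in wild-type fat. All are under the floor, where GCRMA draws values together, so no fold is given.

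**Figure D3:**
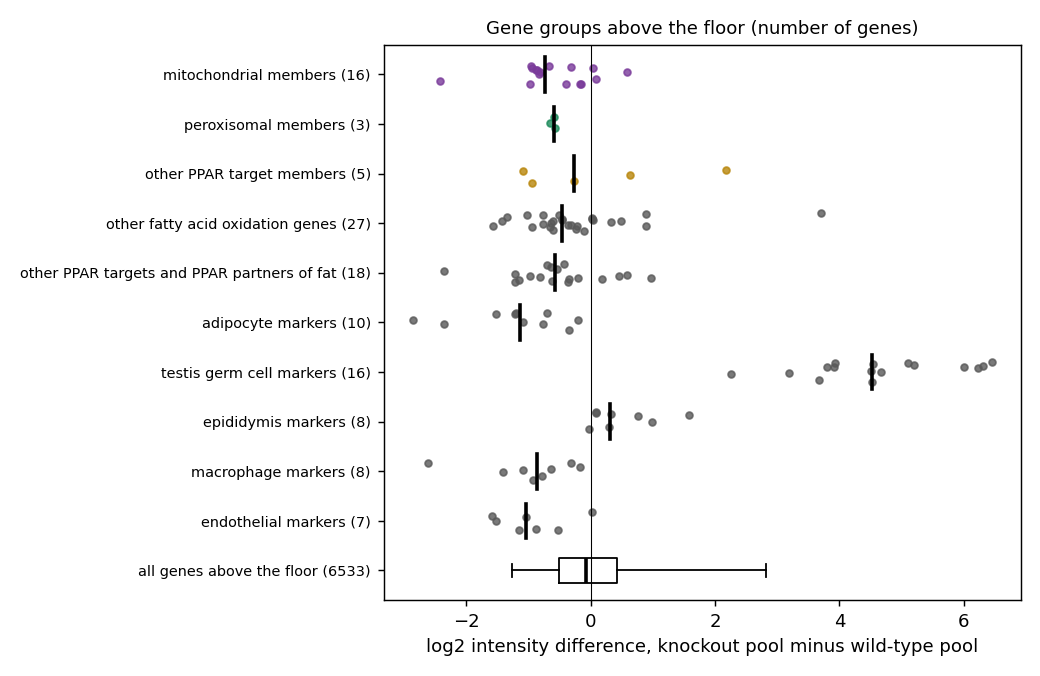
Log2 differences, knockout pool minus wild-type pool, of the genes above the floor in each group (1 point per gene, black line at the group median, number of genes in brackets, vertical jitter only for legibility). The box for all 6533 genes spans the quartiles, with whiskers at the 5th and 95th percentiles. The mitochondrial median is -0.74 and the peroxisomal -0.59, between the adipocyte markers at -1.15 and all genes at -0.08, and the germ cell markers stand at 4.53.

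Other genes of the pathways, none of them on the list of 31, were also lower on balance. Of 42 further fatty acid oxidation genes, 27 reached the floor. Of these, 19 were lower (70.4%, against 55.5% of all genes) and 8 higher. At least 2-fold lower were 4 (14.8%, against 9.14%) and at least 2-fold higher 1 (3.70%, against 13.7%), and the median was -0.46. They ranged from Acaa1b (-1.58) to Acsl6, a long-chain acyl-CoA synthetase at 153 in knockout and 11.8, below the floor, in wild-type fat (at least 4.77-fold higher). Of 32 further PPAR targets and PPAR partners in fat, 18 reached the floor, 14 of them lower (77.8%, against 55.5%) and 4 at least 2-fold lower (22.2%, against 9.14%), with a median of -0.58. They ranged from Pparg, the PPAR of fat cell formation (370 in knockout and 1893 in wild-type fat, -2.35), to Aqp7, a glycerol channel (72.6 in knockout and 37.2 in wild-type fat, 0.96). Of the 12 adipocyte markers, 4 also belong to this list. No difference between these groups was tested, since 1 array per pool allows none.

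**Figure D4:**
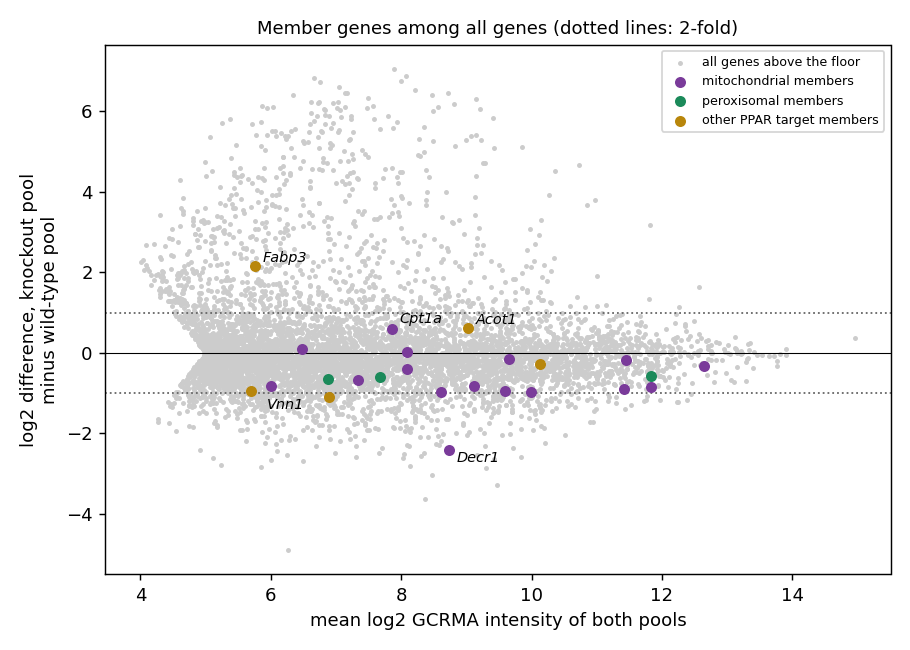
Log2 difference, knockout pool minus wild-type pool, against the mean log2 intensity of both pools for all 6533 genes above the floor (grey) and the listed genes (coloured), with dotted lines at 2-fold. Most listed genes lie between -1 and 0 over the whole intensity range, Decr1 and Vnn1 lie under the lower line, and Fabp3 lies above the upper one.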

How the data were processed

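RNA of epididymal fat was isolated with TRIzol, pooled, labelled with biotin and hybridised to Affymetrix mouse arrays. The design text names the 430 2.0 array. The deposited values themselves hold 22690 probe sets, and their probe annotation is that of a related, smaller array. The submitters' processing notes name GCRMA 2.20, a method that subtracts background modelled on probe sequence, equalises the distributions of the arrays and summarises each probe set. The intensities deposited by the authors run from 1.91 to 36322, so they are linear, and log2 was taken. Equalising the distributions presumes that few genes differ. Which arrays were normalised together, and detection calls, are not given in the sources used here.

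Of 22690 probe sets, 20393 were assigned to 1 gene (20364 renamed by Entrez identifier with RefSeq, GRCm38.p6), 691 to several and 1606 to none; the last 2 kinds entered no count. The floor was reached by 43.1% of probe sets in the knockout pool and 42.0% in the wild-type pool. With 1 array per genotype, counts and medians are descriptions beside those of all genes. Precision is limited by the number of arrays. The members, lists and call sizes were chosen with earlier results of these data known, and the division of mitochondrial genes by step was made after their values were seen. All 31 members are named; of other lists the genes at each end, Ppard and Acaa1b are named by rule, and Chkb and Gm44502 because they share the Cpt1b probe set. The further genes named beside the listed dehydrogenases and the later steps, and those in the closing observations, were chosen after their values were seen. Alternatives were other floors (log2 4, 6 or none), dim values set to the floor, probe set means, exclusion of probe sets with suffix _s or _x, centring, and removal of the intensity trend (lowess, span 0.4). The scripts (Python 3.11.15, pandas 2.3.3, statsmodels 0.14.6) were tested on simulated data.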

Additional observations from a re-analysis of the deposited data

How the results depend on the processing

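With 1 pooled array per genotype no replicate could be left out, and the arrays themselves limit every value. No paired analysis was possible because each genotype has 1 array. Some recomputed values could not move, since a floor of log2 6, for example, kept the same 24 members. Of 88 recomputed counts and medians, 87 stayed within 1.5 times the reported count or within 0.25 (log2) of the reported median. The exception was the number of members at least 2-fold lower, which was 1 in place of 2 with the intensity trend removed, where Vnn1 was at -0.92. With the trend removed this was 4.17% of members, against 7.49% of all genes. The share of members was also under that of all genes as reported, with a floor of log2 6 (8.33% against 10.3%) and with probe set means (8.33% against 8.88%). It was above that of all genes without probe sets of shared sequence (3 of 22, 13.6% against 9.21%) and with differences centred (8.33% against 7.70%). The same held with dim values at the floor (8.33% against 7.99%) and with a floor of log2 4 or none. The median of all members ranged from -0.74 to -0.47, that of the mitochondrial members from -0.82 to -0.59, and no median reversed. That of the other PPAR targets, reported as -0.27, ranged from -0.34 to -0.12. The allowance is wide for such small values and for small counts, as it passes 3 against 2. Members at least 1.5-fold lower numbered 10 of 24, against 18.2% of all genes, with differences centred, and 10, against 17.5%, with the trend removed. Of single genes, Cpt1a was at 0.32 when its probe sets were averaged and 0.05 without those of shared sequence, and Fabp3 was at 1.84 with its wild-type value set to the floor. Without probe sets of shared sequence, Hadh was represented by the probe set that was 2.01-fold lower. Excluding those probe sets changes the representative of both genes.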

Other observations

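Among the 27 measured genes of the further fatty acid oxidation list, those lower by at least 2-fold or higher by at least 1.5-fold in knockout fat are given here, chosen after their values were seen. The 4 at least 2-fold lower (14.8%, against 9.14% of all genes) were Acaa1b, described above with Acaa1a, and 3 others. Abcd2, a transporter that brings very long chains into peroxisomes, was at 649 in knockout and 1744 in wild-type fat (-1.43). Pex11a, which promotes peroxisome division, was at 85.3 in knockout and 216 in wild-type fat (-1.34). Phyh, the phytanoyl-CoA hydroxylase of α-oxidation, was at 1096 in knockout and 2234 in wild-type fat (-1.03).

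The 3 at least 1.5-fold higher as measured (11.1%, against 20.7% of all genes) were Acsl6, described above, Crat and Bdh1. Crat, the carnitine acetyltransferase, was at 630 in knockout and 342 in wild-type fat (0.88). Bdh1, a ketone body dehydrogenase, was at 43.1 in knockout and, under the floor, at 23.1 in wild-type fat, at least 1.35-fold higher with that value set to the floor. The germ cell markers, with a median difference of 4.53, and the adipocyte markers, with -1.15, were measured in the same pools, and their part in these values was not tested.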
